A study of Schizosaccharomyces pombe with 4 samples.

Results

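The septin genes of fission yeast, *spn1* to *spn7*, were taken by name from the gene rows of a transcript table of *Schizosaccharomyces pombe*. They are 7 of 5129 protein-coding genes, and all 7 had enough reads to be tested among 5073 protein-coding genes. The 3 genes named for sporulating cells, *spn5* to *spn7*, were set against the 4 genes of dividing cells, *spn1* to *spn4*. The table comes from rRNA-depleted total RNA of *rrp6*Δ cells, which lack the nuclear exonuclease Rrp6, and of a wild-type (WT) strain, with 2 biological replicates of each. Rrp6 is a subunit of the nuclear exosome, which trims and degrades many kinds of RNA, unstable non-coding and meiotic ones among them. RNA was extracted with hot phenol, mixed with ERCC spike-in RNA, made into strand-specific libraries and sequenced in pairs of 50 nt. The labels give the strains only as deletion and wild type, and the culture medium is not given for these samples in the sources used here.

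Septins are GTP-binding proteins that assemble side by side into filaments at membranes. In dividing fission yeast, Spn1, Spn2, Spn3 and Spn4 form a ring at the division site, which is needed for the daughter cells to separate efficiently after the septum is made. Spn5, Spn6 and Spn7 are made during meiosis, where with Spn2 they line the forespore membrane, the membrane that grows around each haploid nucleus to form a spore, and help to direct its growth. Spn2 thus belongs to both assemblies.

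The table gives the genes on all 3 chromosomes, in coordinates that fit the ASM294v3 assembly. *spn1* (SPAC4F10.11) runs from 4852998 to 4855199 on the plus strand of chromosome I. *spn2* (SPAC821.06) runs from 990192 to 991889 on its plus strand, *spn4* (SPAC9G1.11c) from 1991482 to 1993169 on its minus strand, and *spn5* (SPAC24C9.15c) from 3074267 to 3075988 on its minus strand. *spn3* (SPBC16A3.01) lies on the minus strand of chromosome II from 4298727 to 4300961, and *spn7* (SPBC19F8.01c) on the same strand from 3228620 to 3231394. *spn6* (SPCC188.12) lies on the plus strand of chromosome III from 1504862 to 1506851.

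The 7 genes code for related proteins of 331 to 469 residues, as translated from the coding sequences of the RefSeq annotation. Each septin of sporulating cells had its closest relative within the family among those of dividing cells. Spn6 shared 40.3% of aligned residues with Spn4, Spn7 shared 36.9% with Spn3, and Spn5 shared 35.8% with Spn1. The closest pair of all was Spn1 and Spn2, at 41.3%, and the most distant was Spn5 and Spn7, at 27.8%. The pattern of a GTP-binding P-loop (GxxxxGKS or GKT) was found in Spn1, Spn2, Spn4, Spn5 and Spn6, and these letters were not found in Spn3 or Spn7. At the level of DNA the genes are well apart, since no member shared a run of 25 nt with another, and no 50-nt window of their coding sequences occurred a further time in the genome.

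Meiotic transcripts that are made in dividing cells can be bound by Mmi1, an RNA-binding protein that reads a core hexamer and directs them to the nuclear exosome. Its DNA form TNAAAC, where N is any base, was counted on the sense strand of each gene row. It occurred 9 times in *spn7*, 8 times in *spn6* and 8 times in *spn5*, against 9 times in *spn4*, 4 in *spn3*, 3 in *spn2* and 3 in *spn1*. Per kb these counts are 3.24, 4.02 and 4.65 for *spn7*, *spn6* and *spn5*, against 5.33, 1.79, 1.77 and 1.36 for *spn4*, *spn3*, *spn2* and *spn1*. The median over 5118 protein-coding genes was 1.69 per kb. The share of those genes at least as dense was 8.93% for *spn7*, 3.95% for *spn6* and 2.13% for *spn5*, and it was lowest, 1.35%, for *spn4* of dividing cells. For each of these 4 genes, the stretch of coding sequence with the most hexamers within 100 nt, and the shortest such stretch where several tied, is printed here 5′ to 3′ on the sense strand, from the RefSeq ASM294v3 sequence, with the hexamers in capitals, because these genes had the most copies.
spn7 (chrII:3229037-3229071, minus strand): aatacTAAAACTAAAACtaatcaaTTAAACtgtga
spn6 (chrIII:1505984-1506041, plus strand): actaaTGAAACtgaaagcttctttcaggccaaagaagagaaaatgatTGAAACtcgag
spn5 (chrI:3075726-3075764, minus strand): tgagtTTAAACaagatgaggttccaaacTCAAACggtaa
spn4 (chrI:1992080-1992144, minus strand): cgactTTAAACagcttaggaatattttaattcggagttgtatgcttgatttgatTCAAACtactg
In *spn7*, 3 hexamers fall within 35 nt, and in each of the other stretches there are 2. A match describes the letters only, and binding was not measured.

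The forkhead factor Mei4, which switches on genes of the meiotic divisions and of sporulation, reads the FLEX box. GTAAACA or GTAAATA was searched on both strands of the 500 nt before each start codon. At least 1 match was found for 41.5% of 5117 genes, and at least 3 for 2.23%. There were 3 matches before *spn5*, 2 before *spn7* and 0 before *spn6*, against 2 before *spn3*, 2 before *spn4*, 1 before *spn2* and 0 before *spn1*. In the form GTAAACA alone, counted after the matches had been seen and held by 23.4% of genes, *spn5* kept 3 matches and *spn7* 2, and the other 5 septin genes had 0. Both matches of *spn7* lie inside its gene row, which runs 884 nt past the 5′ end of the RefSeq gene. RefSeq lists mde9 and meu28 as further names of *spn5*, and mde8 of *spn7*. The matches of these genes are shown 5′ to 3′ in the direction of the gene, with GTAAACA or its reverse complement TGTTTAC in capitals.
spn5 site 1 (chrI:3076242-3076266, minus strand): atgtttgttTGTTTACatgactcgc
spn5 site 2 (chrI:3076208-3076232, minus strand): ggcatcgatTGTTTACttcttgtca
spn5 site 3 (chrI:3076144-3076168, minus strand): cctttgaaaGTAAACAcaacaaaca
spn7 site 1 (chrII:3230934-3230958, minus strand): gcatcattaTGTTTACgaagttata
spn7 site 2 (chrII:3230521-3230545, minus strand): tattaagcaGTAAACAaacaaaccc

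The libraries held 37893454 to 52313091 reads on protein-coding genes. Levels are given as the deposited normalized read counts, each a whole number of reads times a factor of its library (0.820 and 1 for *rrp6*Δ libraries 1 and 2, 0.884 and 0.729 for WT libraries 1 and 2). The *rrp6* row had 7.38 and 8 normalized read counts in *rrp6*Δ, against 2352 and 2842 in WT. Most transcripts were higher in *rrp6*Δ, with a median log2 fold change of 0.66 over 11227 tested transcripts and of 0.26 over protein-coding genes. The tested transcripts include unstable ones that the study defined by their rise in *rrp6*Δ. A gene was called when the adjusted p of limma was under 0.05 and the change above 2-fold. Because the RNA is that of whole cultures, fewer cells of a type and less RNA per cell cannot be told apart.

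Of the 7 septin genes, 2 rose in *rrp6*Δ and 0 fell, where 6.39% of protein-coding genes rose and 0.591% fell. Both that rose, *spn6* (8.22-fold of the mean) and *spn7* (3.96-fold), are genes of sporulating cells. *spn5* was 1.94-fold higher and lay just under the 2-fold minimum. None of *spn1* to *spn4* was called, and their means in *rrp6*Δ were 1.01- to 1.39-fold those in WT.

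*spn6*, whose product is made in meiosis and joins the septins of the forespore membrane, was the lowest septin gene in WT. It had 158 and 141 normalized read counts in *rrp6*Δ, against 15.9 and 20.4 in WT, from 192 and 141 reads in *rrp6*Δ and 18 and 28 in WT. Every *rrp6*Δ library thus lay far above every WT library. The log2 fold change was 3.0 (SE 0.25, 95% interval 2.46 to 3.53, adjusted p = 2.22e-08, limma), and 0.631% of the tested protein-coding genes rose by more.

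*spn7*, the most abundant septin gene of sporulating cells in all 4 libraries, had 1261 and 1349 normalized read counts in *rrp6*Δ, against 270.4 and 389 in WT. The libraries of the strains did not overlap. The log2 fold change was 2.00 (SE 0.16, 95% interval 1.66 to 2.35, adjusted p = 1.54e-08, limma), and 2.25% of protein-coding genes rose by more.

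*spn5*, also a septin of the forespore membrane, had 98.4 and 119 normalized read counts in *rrp6*Δ, against 45.1 and 67.0 in WT. The strains did not overlap, although the WT libraries stood far apart from each other. The log2 fold change was 0.97 (SE 0.25, 95% interval 0.45 to 1.49), which passed the p threshold (adjusted p = 0.00208, limma) and not the 2-fold minimum. It rests on few reads, 120 and 119 in *rrp6*Δ and 51 and 92 in WT. Without WT library 2 the value was 1.25 and without *rrp6*Δ library 1 it was 1.10, and in each case *spn5* was called. Without WT library 1 it was 0.69 and without *rrp6*Δ library 2 it was 0.83. *spn5* missed the p threshold with TMM factors over all transcripts (0.43, adjusted p = 0.0625, limma) and with the size factors of DESeq2 (0.29, adjusted p = 0.36, DESeq2). With quantile normalization the sign turned, at −0.69, which passed the p threshold with less than 2-fold (adjusted p = 0.00698, limma).

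The genes of the division-site ring moved little. *spn1*, whose loss impairs the ring most together with that of *spn4*, had 2882 and 3016 normalized read counts in *rrp6*Δ, against 1995 and 2263 in WT. Its log2 fold change was 0.47 (SE 0.11, adjusted p = 0.00152, limma). *spn4* had 2682 and 2643 in *rrp6*Δ, against 1849 and 2388 in WT, with a log2 fold change of 0.34 (SE 0.13, adjusted p = 0.0246). Both genes passed the p threshold with less than 2-fold, as did 46.7% of protein-coding genes in the upward direction whatever their fold.

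*spn2*, the subunit of both the mitotic and the meiotic assembly, had 2387 and 2487 normalized read counts in *rrp6*Δ, against 1884 and 2201 in WT. Its log2 fold change of 0.26 (SE 0.12, 95% interval 0.01 to 0.51) did not pass after adjustment (adjusted p = 0.0601, limma). *spn3*, a ring subunit whose loss has mild effects, had 3187 and 3347 in *rrp6*Δ, against 2949 and 3532 in WT, and here the strains overlapped. Its log2 fold change was 0.02 (SE 0.12, 95% interval −0.23 to 0.26, adjusted p = 0.902). The *rrp6*Δ libraries lay above both WT libraries for 6 of the 7 septin genes, all but *spn3*, as they did for 65.3% of protein-coding genes. WT library 2 was above WT library 1 for all 7.

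**Figure D1:**
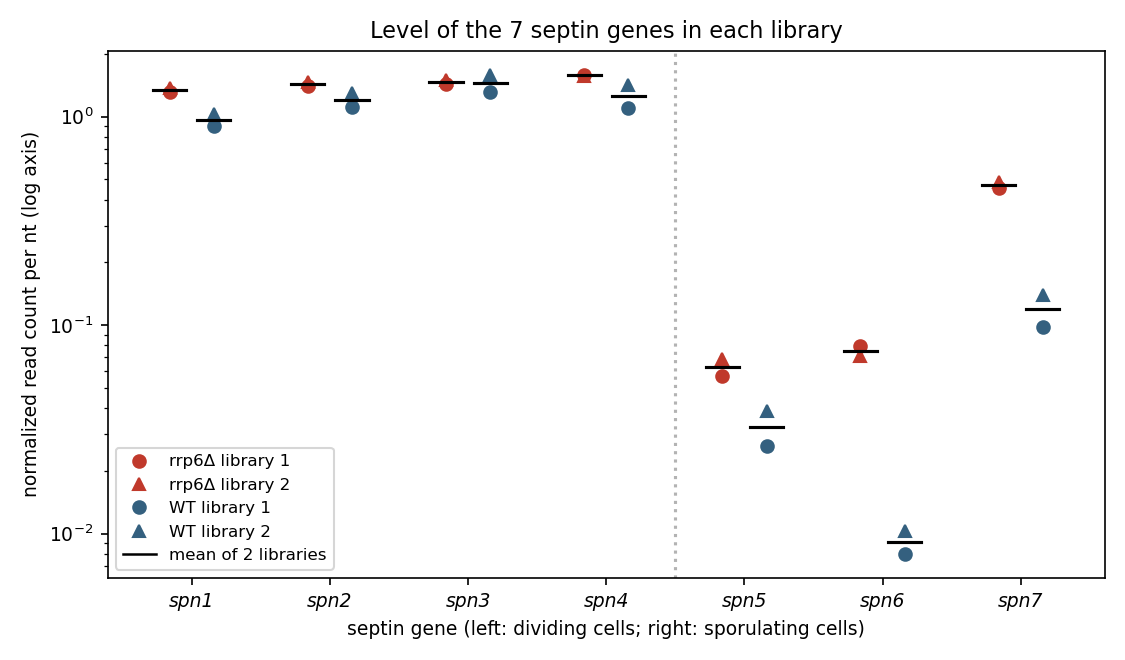
Normalized read counts per nt of gene row (log axis) of the 7 septin genes, 1 point a library, with *rrp6*Δ left of WT for each gene and a bar at the mean of each strain. *spn1* to *spn4* sit together between 0.906 and 1.59 per nt in all libraries, while *spn6* and *spn7* are separated widely between the strains, at 0.0709 to 0.0792 against 0.00799 to 0.0103 for *spn6*.

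Set side by side, the median log2 fold change was 2.00 over *spn5* to *spn7* and 0.30 over *spn1* to *spn4*, a difference of 1.70 on the log2 scale. Taken for each of the 4 combinations of an *rrp6*Δ with a WT library, this difference of medians was 1.78, 1.55, 1.86 and 1.63. It is a description of 3 and 4 genes, which were not tested as a group. Multiplying a library by another factor moves all genes in it alike, so the choice of spike-in scaling hardly enters this difference. Quantile normalization, which changes low and high genes unequally, gave 1.28.

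**Figure D2:**
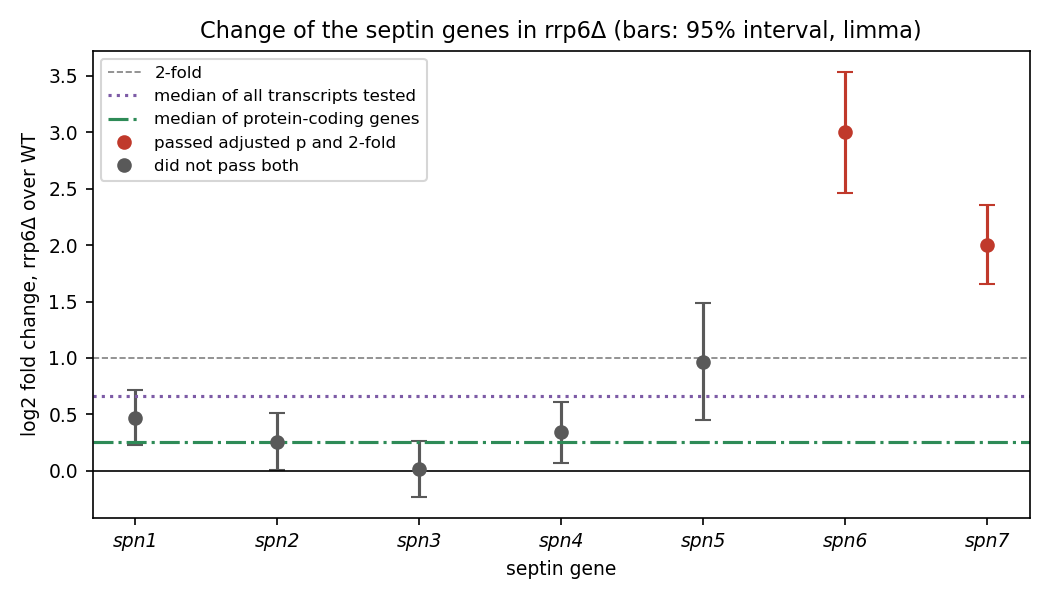
Log2 fold change of *rrp6*Δ over WT for the 7 septin genes, with limma's 95% interval and reference lines at the median of all tested transcripts, at the median of protein-coding genes and at 2-fold. *spn6* and *spn7* lie beyond the 2-fold line with their whole interval, the interval of *spn5* (0.45 to 1.49) includes it, and those of *spn1* to *spn4* end below it.

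Levels per nt of gene row allow the genes to be ranked within a library. In both *rrp6*Δ libraries the order from high to low was *spn4*, *spn3*, *spn2*, *spn1*, *spn7*, *spn6* and *spn5*, with 1.59 and 1.57 normalized read counts per nt for *spn4* and 0.0572 and 0.0691 for *spn5*. In WT *spn3* came first, at 1.32 and 1.58 per nt, and *spn6* last, at 0.00799 and 0.0103. By whole rows *spn6* thus lay above *spn5* in *rrp6*Δ, at 0.0709 against 0.0691 per nt in library 2, and below it in WT. By summed coding pieces, which leave out CUT1425, an unstable transcript in the end of the *spn6* row, *spn6* had 0.112 and 0.0875 per nt of coding sequence in *rrp6*Δ and *spn5* 0.0829 and 0.0961, so that their order in *rrp6*Δ differed between the libraries. In WT *spn6* was below *spn5* by this measure too, at 0.0101 and 0.0134 against 0.0380 and 0.0564. Summed coding pieces also put *spn2* first in all libraries, at 3.64 and 3.76 per nt in *rrp6*Δ and 2.95 and 3.42 in WT. *spn3* came next, at 2.58 and 2.61 in *rrp6*Δ and 2.15 and 2.69 in WT. The order among *spn1* to *spn4* thus depended on the measure. By whole rows, the levels of *spn3* and *spn2* overlapped across the *rrp6*Δ libraries, although *spn3* was above *spn2* within each. In WT *spn3* was above *spn4* and *spn2* within each library. Across the WT libraries its levels overlapped those of *spn4* and not those of *spn2*. The order of *spn4* and *spn2* differed between the WT libraries.

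The septins of sporulating cells remained the minor ones in both strains. Their summed level per nt of gene row was 10.3% and 10.6% of that of *spn1* to *spn4* in *rrp6*Δ, against 2.97% and 3.56% in WT. *spn7* alone made up 7.19% and 7.45% of the total of all 7 in *rrp6*Δ, against 2.14% and 2.55% in WT. Among all protein-coding genes, *spn6* stood above 3.82% by its level per nt in *rrp6*Δ and above 1.99% in WT. *spn7* stood above 19.6% in *rrp6*Δ and 7.43% in WT, while *spn5* stood above 3.45% in *rrp6*Δ and 3.84% in WT and so did not move up among the genes. *spn1* to *spn4* stood above 56.8% to 62.6% of genes in *rrp6*Δ and above 51.3% to 64.8% in WT.

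The ratios within the family, taken per nt of gene row, also differed between the strains. The level of *spn7* per nt was 5.74 and 6.86 times that of *spn6* in *rrp6*Δ, against 12.2 and 13.7 times in WT. Per nt of coding sequence *spn7* stood further above *spn6*, at 1.24 and 1.27 beside 0.112 and 0.0875 in *rrp6*Δ. In WT it had 0.254 and 0.351 beside 0.0101 and 0.0134 for *spn6*. The level of *spn5* was 0.722 and 0.975 times that of *spn6* in *rrp6*Δ, against 3.27 and 3.80 times in WT. By whole rows the 4 ring genes were the more even group. The highest was 1.21 and 1.14 times the lowest in *rrp6*Δ, against 1.46 and 1.54 times in WT. Per nt of coding sequence the ring genes were less even in both strains, with *spn2* highest and *spn1* lowest in all libraries. In *rrp6*Δ *spn2* had 3.64 and 3.76 by this measure, beside 1.97 and 2.06 for *spn1*. Beside its closest relative by protein sequence, *spn6* reached 4.98% and 4.53% of *spn4* in *rrp6*Δ, against 0.730% and 0.725% in WT. *spn7* reached 31.9% and 32.5% of *spn3* in *rrp6*Δ, against 7.39% and 8.87% in WT. These percentages are by whole rows, and the *spn7* row runs 884 nt past the RefSeq gene. Per nt of coding sequence *spn7* stood nearer to *spn3*, at 1.24 and 1.27 beside 2.58 and 2.61 in *rrp6*Δ. In WT the levels were 0.254 and 0.351 beside 2.15 and 2.69.

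The table also counts reads in each continuous piece of coding sequence, so the changes could be followed along the genes. *spn7* was higher in *rrp6*Δ in all of its 6 pieces, with ratios of the strain means of 3.56 to 4.86. *spn6* has 2 pieces. The long piece of 1084 nt had 109.9 and 94 normalized read counts in *rrp6*Δ, against 10.6 and 12.4 in WT, a ratio of 8.87. The short piece of 59 nt had 18.0 and 6 in *rrp6*Δ, against 0.884 and 2.91 in WT, from very few reads. The change of *spn5* was uneven: its first piece of 560 nt had 21.3 and 28 in *rrp6*Δ, against 4.42 and 8.01 in WT, a ratio of 3.97, while the second and the last piece had ratios of 1.59 and 1.80. That first piece rests on 26 and 28 reads in *rrp6*Δ and 5 and 11 in WT. The pieces of *spn1* had ratios of 1.39 to 1.41, those of *spn2* 1.11 to 1.2, those of *spn3* 1.04 to 1.08, and the single piece of *spn4* 1.25.

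**Figure D3:**
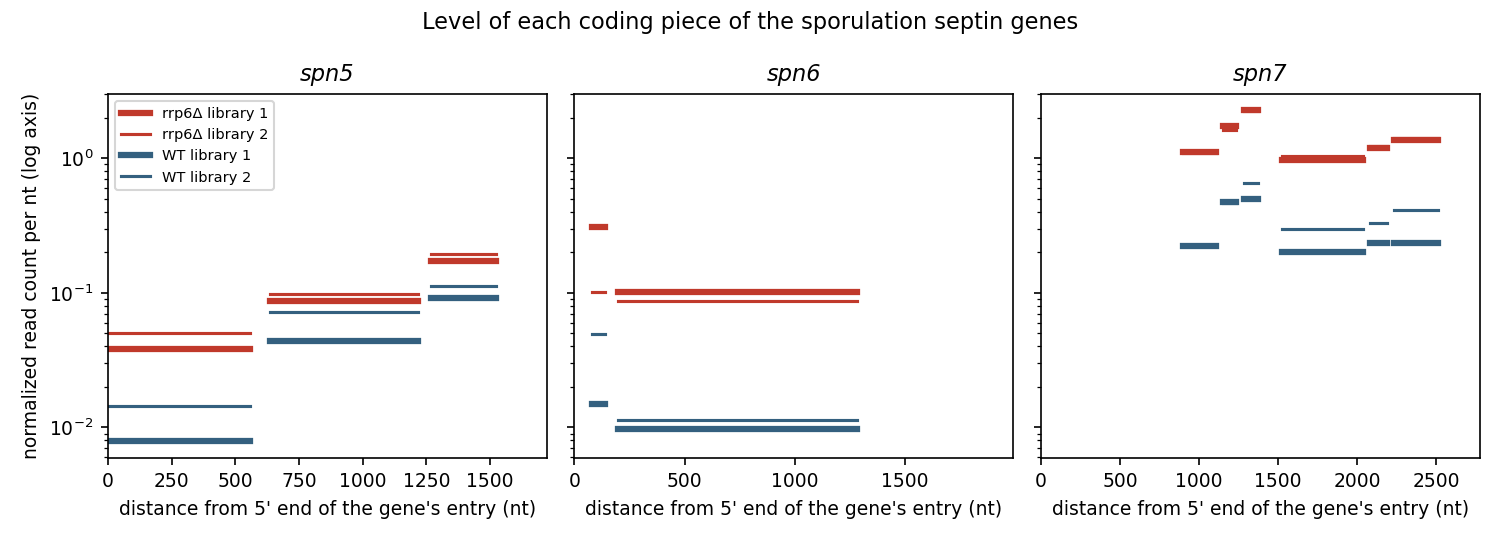
Normalized read counts per nt (log axis) in each piece of coding sequence of *spn5*, *spn6* and *spn7*, with a line for each library. Pieces are placed by their distance in nt from the 5′ end of the gene row. In every piece both *rrp6*Δ lines lie above both WT lines, as at 0.0381 and 0.05 against 0.00789 and 0.0143 in the first piece of *spn5*.

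With the coding pieces summed in place of the gene rows, the log2 fold changes were 3.02 for *spn6* (SE 0.28, adjusted p = 4.28e-07, limma), 2.07 for *spn7* (SE 0.16, adjusted p = 5.74e-08) and 0.94 for *spn5* (adjusted p = 0.00273). Those of *spn1* to *spn4* were 0.49, 0.22, 0.11 and 0.33, so the calls were those of the whole rows.

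Of the transcripts of the table, 16 overlap a septin gene by at least 1 nt, 4 on the same strand and 12 on the opposite one, and 7 of them rose. The background among all tested transcripts was 42.6% higher and 0.57% lower, and among protein-coding genes 6.39% and 0.591%. The overlapping transcripts include cryptic unstable transcripts (CUTs), which the study defined by their rise in *rrp6*Δ, and Xrn1-sensitive unstable transcripts (XUTs). All overlapping CUTs rose (CUT1425, CUT1818, CUT1913 and CUT1914), which that definition fixed in advance. CUTs are also part of the 42.6%, so this count and share are a description only. The others that rose were spn2-antisense-1, XUT0367 and *ppk24*. No listed transcript overlaps *spn1* or *spn4*.

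The 2 low septin genes lie within the row of a much more abundant gene on the opposite strand. The row of *otu1*, a deubiquitinating enzyme gene, covers 100% of *spn5* and had 4173 and 4620 normalized read counts in *rrp6*Δ, against 2740 and 2595 in WT (log2 fold change 0.72, SE 0.11), which is not called. *spn5* amounted to 2.36% and 2.58% of *otu1* in *rrp6*Δ, against 1.64% and 2.58% in WT. The row of *dcr1*, the Dicer ribonuclease gene, covers 95.6% of *spn6* and had 2898 and 3102 in *rrp6*Δ, against 2303 and 2339 in WT (log2 fold change 0.37), also not called. *spn6* amounted to 5.44% and 4.55% of *dcr1* in *rrp6*Δ, against 0.691% and 0.872% in WT. The libraries are strand-specific, and the part of any reads of the opposite strand in the counts of *spn5* and *spn6* was not tested. The coding sequences of *otu1* and *dcr1* overlap those of *spn5* and *spn6* by 0 nt. The coding sequence of *dcr1* does overlap the *spn6* row by 686 nt, past the end of the *spn6* coding sequence. That of *otu1* overlaps the *spn5* row by 0 nt.

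On the same strand, CUT1425 lies in the last part of *spn6* from 1506246 to 1506811, past the end of the coding sequence. It had 50.9 and 51 normalized read counts in *rrp6*Δ, against 7.07 and 7.29 in WT (log2 fold change 2.71, SE 0.33), and its reads cannot be told apart from those of *spn6* in the shared stretch. The coding piece of 1084 nt, which CUT1425 does not reach, had the ratio of 8.87 given for it. XUT0367 overlaps the 5′ part of *spn7* by 409 nt and had 125 and 154 in *rrp6*Δ, against 33.6 and 45.9 in WT (log2 fold change 1.80). The neighbouring gene *ppk24*, of the same strand and with 126 nt in common with *spn7*, had 559 and 618 in *rrp6*Δ, against 245 and 309 in WT (log2 fold change 1.09, adjusted p = 1.46e-05, limma).

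Opposite to *spn7*, CUT1818 rose to 50 and 55 normalized read counts in *rrp6*Δ, against 3.53 and 6.56 in WT, whereas the annotated antisense RNA spn7-antisense-1 had 43.5 and 64 in *rrp6*Δ, against 45.1 and 42.3 in WT (log2 fold change 0.27), and was not called. XUT1183 (0.07) and the gene *nud3* (−0.11, 69 nt in common) were not called either. Opposite to *spn3*, CUT1913 rose to 32.0 and 28 in *rrp6*Δ, against 2.65 and 2.19 in WT, and CUT1914 to 24.6 and 38, against 1.77 and 6.56 in WT. *spn3* itself was the septin gene with the smallest log2 fold change. Opposite to *spn2*, spn2-antisense-1 rose to 71.4 and 77 in *rrp6*Δ, against 24.7 and 37.2 in WT (log2 fold change 1.27, adjusted p = 0.000523, limma), while XUT0511 (0.70) and *moc3* (0.14) were not called. The neighbours SPBC16A3.02c (0.90, 148 nt in common on the opposite strand) and SPBC543.02c (−0.41, 216 nt on the same strand) of *spn3* were under 2-fold.

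**Figure D4:**
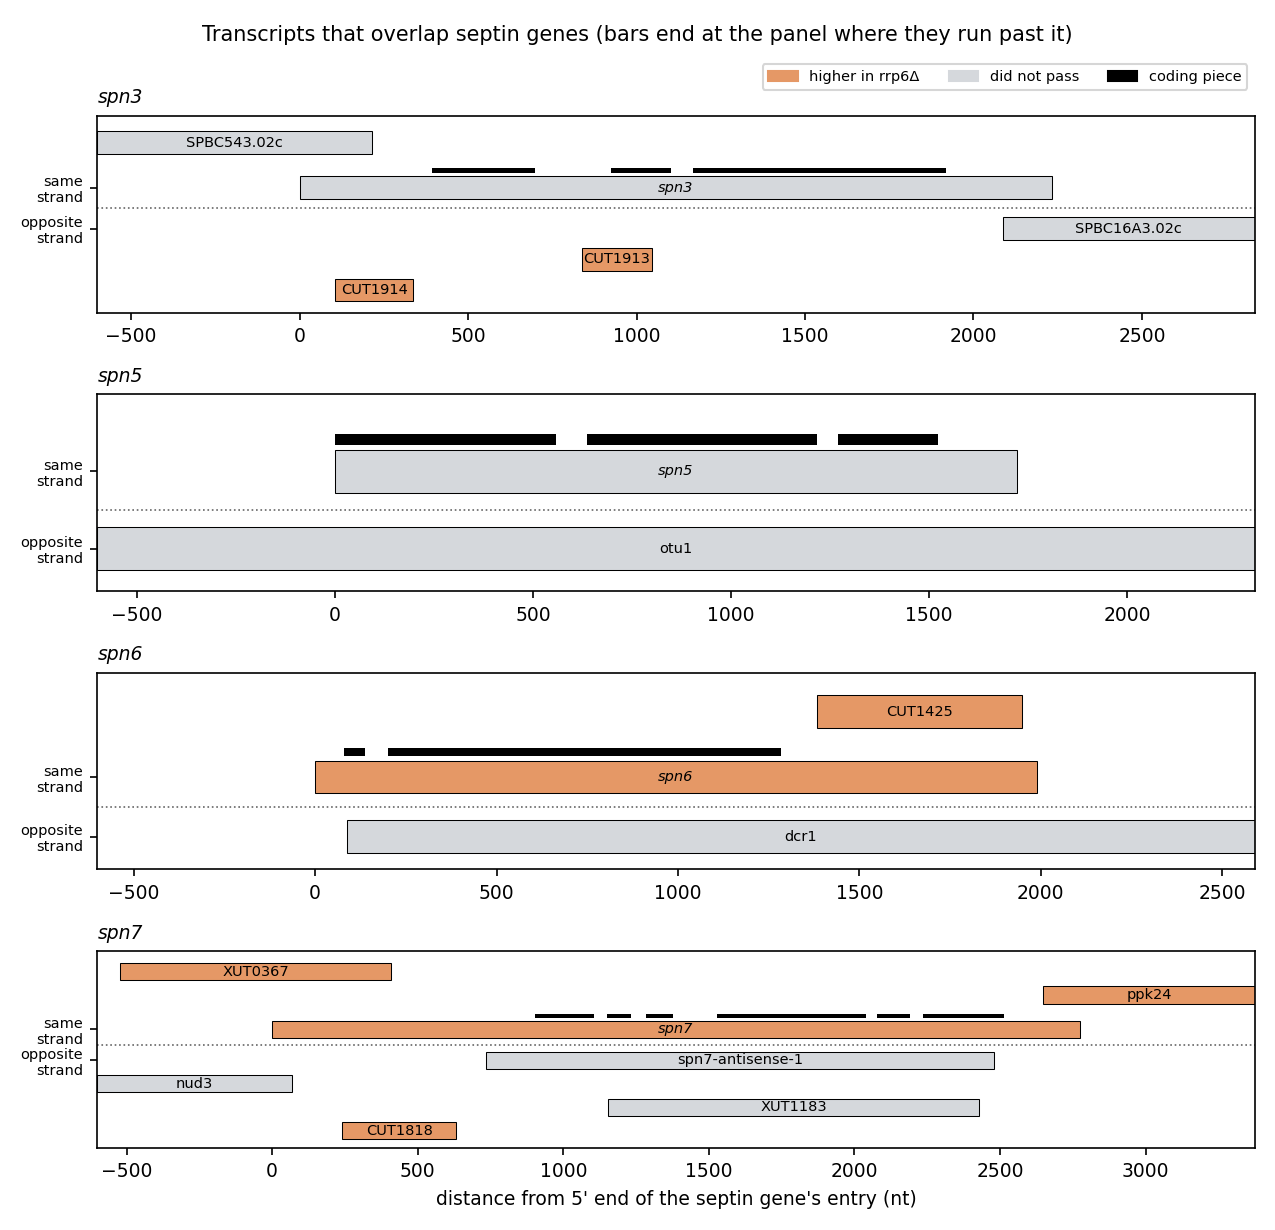
Maps of *spn3*, *spn5*, *spn6* and *spn7*, drawn to scale as distance in nt from the 5′ end of the gene row, with coding pieces in black, overlapping transcripts of the same strand above and of the opposite strand below the dotted line, and orange where the transcript rose in *rrp6*Δ. *spn5* is covered whole by *otu1* (100%) and *spn6* by *dcr1* (95.6%), and CUT1425 sits in the end of *spn6* beyond its coding sequence.

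The proteins that work with the septins gave the surroundings of each group. Of 23 genes of septin partners and the division site, 0 rose and 0 fell under limma, with a median log2 fold change of 0.17. Among all tested protein-coding genes, 6.39% rose and 0.591% fell. *mid2*, the anillin-like protein that stabilises the septin ring, had 13046 and 14373 normalized read counts in *rrp6*Δ, against 12626 and 12212 in WT (log2 fold change 0.14). *gef3*, whose product binds the septin ring, had 745 and 789 in *rrp6*Δ, against 604 and 641 in WT (log2 fold change 0.30, adjusted p = 0.0569, limma). Of 15 genes of cell separation and the exocyst, 0 rose and 0 fell, with a median of 0.14. Both lists thus lay close to *spn1* to *spn4* and to the median of protein-coding genes.

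Of 12 genes of the forespore membrane, the site of the meiotic septins, 4 rose and 0 fell, with a median log2 fold change of 0.54. For this and the next lists, the share of all tested protein-coding genes was 6.39% higher and 0.591% lower. *meu14*, which sits at the leading edge of the forespore membrane, had 274 and 335 normalized read counts in *rrp6*Δ, against 50.4 and 71.4 in WT (log2 fold change 2.32, adjusted p = 6.64e-08, limma), a change between those of *spn7* and *spn6*. The other 3 were the kinase gene *slk1* (2.72), *spo13* (1.14) and *mcp4* (1.08). Of 11 spore wall genes, 4 rose, *meu10* (3.98), *chs1* (1.39), *isp3* (1.35) and *mde10* (1.09), with a median of 0.74. Of 10 tested regulators of the meiotic divisions and of late meiosis, 5 rose and 0 fell, with a median of 1.04. *mei4*, the gene of the forkhead factor, had 864 and 942 in *rrp6*Δ, against 141 and 152 in WT (log2 fold change 2.62), and *spo5* (3.14), *atf31* (2.21) and *atf21* (1.11) were the other 3 with the smallest adjusted p. The lists describe these genes and were not tested as sets.

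Markers of cells that mate or enter meiosis were read beside the septins of sporulation. Of these 15 genes, 6 rose and 1 fell, where 6.39% of tested protein-coding genes rose and 0.591% fell. Their median log2 fold change was 0.84, and their summed level was 9589 and 10229 normalized read counts in *rrp6*Δ, against 8964 and 8856 in WT. *rep1* (2.35), *mfm3* (2.37), *fus1* (1.13) and *ste6* (1.04) were those that rose with the smallest adjusted p. The gene that fell was *ste4*, of the mating pheromone pathway, with 254 and 258 in *rrp6*Δ, against 432 and 623 in WT (log2 fold change −1.02, adjusted p = 7.63e-05, limma). Of the early regulators, *ste11* (−0.46, adjusted p = 0.00198) and *mei2* (−0.82, adjusted p = 2.68e-05) were lower by less than 2-fold, and *mei3*, the inducer of meiotic entry in diploid cells, had 16.4 and 31 in *rrp6*Δ, against 8.84 and 10.9 in WT (log2 fold change 1.14). No marker was at 0 in any library, and the part of such cells in the rise of *spn6* and *spn7* was not tested.

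The protein-coding genes whose 4 values were most like those of *spn6*, by Euclidean distance of centred log2 values among 146 genes of similar level, were *mel1* (distance 0.194), SPAC4F10.17 (0.281) and *mug97* (0.316). For *spn7*, among 1571 genes, they were *zym1* (0.0981), *adh8* (0.156) and *rim20* (0.232). With 4 libraries in 2 strains, likeness amounts to a change and a spread of the same size.

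The sign of the small changes of *spn1* to *spn4* depended on the scaling. When the median of all transcripts was set near 0 by TMM factors, that median moved by −0.54, and the log2 fold changes of *spn1* to *spn4* became −0.07, −0.28, −0.52 and −0.20. Relative to the median of all transcripts in the deposited scaling, *spn1* to *spn4* lay at −0.19, −0.41, −0.65 and −0.32, *spn5* at 0.30, *spn7* at 1.34 and *spn6* at 2.33. That median includes the CUTs, which were defined by their rise in *rrp6*Δ. The median of protein-coding genes was 0.26, beside 0.47, 0.26, 0.02 and 0.34 for *spn1* to *spn4*. *spn6* and *spn7* were called higher under every one of 17 alternatives, with log2 fold changes of 1.25 to 3.17 for *spn6* and 1.33 to 2.27 for *spn7*.

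**Figure D5:**
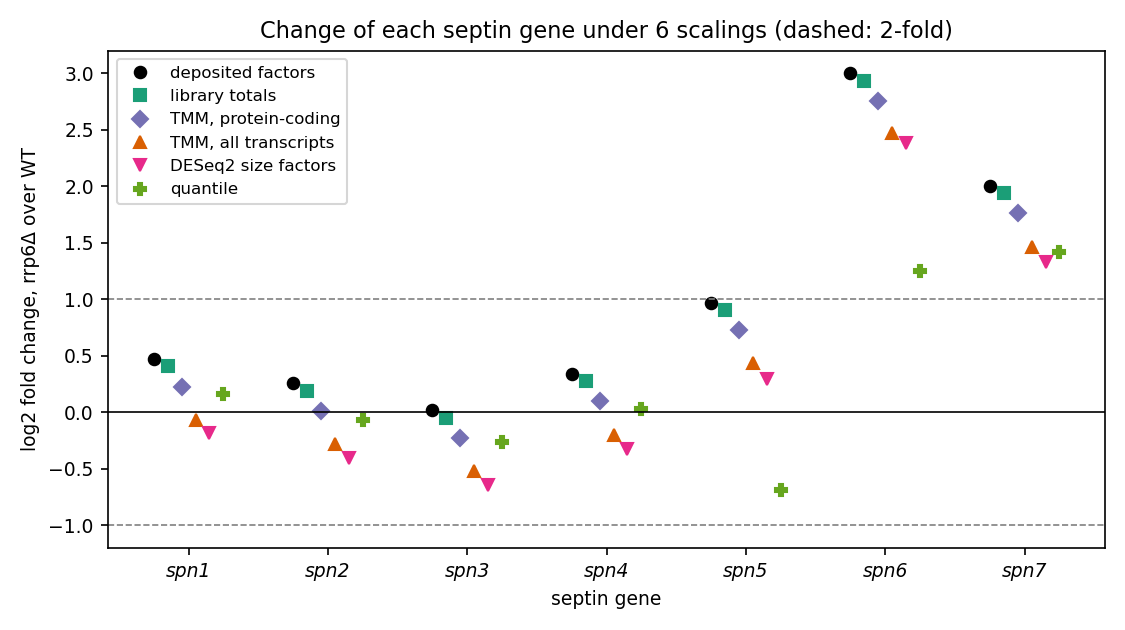
Log2 fold change of *rrp6*Δ over WT for the 7 septin genes under the deposited spike-in scaling and under the other scalings of the libraries. *spn6* and *spn7* stay above 2-fold under each, whereas *spn1* to *spn4* lie on either side of 0, as for *spn3* at 0.02 with the deposited factors and −0.52 with TMM factors over all transcripts.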

How the data were processed

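Strand-specific total RNA-seq of *rrp6*Δ and WT cells, 2 biological replicates each, was used as 1 deposited table. The authors deposited signal values, normalized read counts scaled on ERCC spike-ins, after mapping with TopHat. The counting program and, for this experiment, the genome release are not given in the sources used here. Deposited values per strain, which are sums of both libraries, were not used, and 0 columns belonged to no sample. All values (100%, tolerance 1e-06) were whole reads times a library factor. Of 21852 entries, 10204 coding pieces were used only where named and 28 duplicate entries were left out, which left 11620.

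limma 3.58.1 with a trend (R 4.3.3) was fitted to log2(normalized read count + 0.729) of 11227 transcripts that passed filterByExpr (minimum count 10), with Benjamini-Hochberg adjustment over all. Fold changes on this scale understate changes of low genes. Ratios of means and SE are as stated. edgeR 4.0.16 on the recovered reads, an added test, called 322 protein-coding genes higher and 30 lower, against 324 and 30. DESeq2 1.42.0, other scalings, filters, thresholds, pseudocounts, coding pieces, a replicate block and leaving out each library were alternatives. Both strains' replicates were separate libraries by their counts (chi-square over its degrees of freedom 28.1 in *rrp6*Δ and 115 in WT). The fit was checked on simulated counts.

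The septin genes, lists and tests were chosen with earlier results of these data known. The text names all septin genes, *rrp6*, transcripts overlapping a septin gene, in each list at most 4 called genes with the smallest adjusted p together with *mid2*, *gef3*, *meu14* and *mei4*, and the 3 genes most like each called septin gene within 2-fold of its level. *ste4*, *ste11*, *mei2* and *mei3* and the pairing of relatives were added after values were seen. Motifs, proteins and sequences came from RefSeq ASM294v3 (Python 3.11.15, pandas 2.3.3, Biopython 1.88), whose start codons fit the deposited coding coordinates for 5116 of 5118 genes.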

Additional observations from a re-analysis of the deposited data

How the results depend on the processing

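Of the 7 septin genes, 2 were called higher, and this count was 2 or 3 under all alternatives but that without a fold minimum, in which 5 passed by adjusted p, among them 2 of *spn1* to *spn4*. No septin gene was called lower under any of 20 alternatives. Leaving out 1 library gave 2 to 3 called genes, and log2 fold changes of 0.69 to 1.25 for *spn5* (called at 1.25 without WT library 2 and at 1.10 without *rrp6*Δ library 1) and of −0.11 to 0.15 for *spn3*. *spn5* missed the p threshold without *rrp6*Δ library 2 (0.83), with TMM over all transcripts (0.43) and with DESeq2's own size factors (0.29). The difference of the medians of *spn5* to *spn7* and *spn1* to *spn4* was 1.59 to 1.82 without 1 library and 1.28 with quantile normalization. Signs turned with the scaling: TMM over all transcripts gave −0.069 for *spn1*, −0.28 for *spn2* (adjusted p = 0.00798, limma), −0.52 for *spn3* (adjusted p = 0.000108) and −0.20 for *spn4*. DESeq2 with its own size factors gave −0.19, −0.40, −0.64 and −0.32 for these genes. There *spn2*, *spn3* and *spn4* passed the p threshold with less than 2-fold (adjusted p = 0.000107, 9.23e-11 and 0.00503, DESeq2). Quantile normalization gave −0.073 for *spn2*, −0.26 for *spn3* (adjusted p = 0.0151, limma) and −0.69 for *spn5* (adjusted p = 0.00698). *spn3* was at −0.23 with TMM factors from protein-coding genes (adjusted p = 0.0247, limma) and at −0.050 with library totals. These settings moved the median of all transcripts by −0.66 (DESeq2), −0.72 (quantile), −0.24 (TMM, protein-coding) and −0.07 (library totals). Protein-coding genes called higher and lower numbered 324 and 30 (91.5% higher), against 172 and 157 (52.3%) with TMM over all transcripts, 232 and 58 (80%) with TMM from protein-coding genes, 117 and 188 (38.4%) with quantile normalization, 143 and 254 (36%) with DESeq2, and 2368 and 359 without a fold minimum. With the replicate number as a block, 2 septin genes were higher, and no call on a septin gene changed. Libraries of the same number did not deviate together (r = −0.0136 over 7451 transcripts). This gave no sign of pairing by number and cannot show that they were prepared apart.

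With 2 libraries a strain, the intervals are wide for the low genes: *spn6* rests on 18 and 28 reads in WT and *spn5* on 51 and 92. The cause of the sign changes was not tested.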
